A study of Mus musculus with 24 samples.

Results

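The genes described here encode the ephrin, semaphorin, slit and netrin guidance cues and their receptors. They were taken from a list of 42 gene symbols: 9 Eph receptors, 8 ephrins, 8 semaphorins, 7 plexins and neuropilins, 3 slits, 2 Robo receptors, netrin 1 and 4 netrin receptors. Of the 42, 41 had a probe set under their symbol in the annotation of the array and all 41 passed the filter on low values, out of 18193 genes with a probe set and 13837 that passed. No probe set was named to Ephb2 in the annotation used here. Where a gene had several of its 105 probe sets, the one with the highest mean over all 24 arrays stood for it.

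RNA from mouse embryos at embryonic day 12.5, of strain C57B6 per the labels, was hybridised to Affymetrix Mouse430_2 arrays. Embryos labelled knockout came from crosses of Wnt1cre;Alk5fl/+ with Alk5fl/fl mice. Alk5 is another name for Tgfbr1, which binds TGF-beta ligands together with Tgfbr2, and Wnt1-Cre acts in the neural crest and not in the epithelium, vessels or muscle of the jaw. Mutants were recognised by cleft palate and a defect of the skull vault, and controls were littermates whose alleles the labels do not give. The mandible (lower jaw) and maxilla (upper jaw) were each cut into a proximal and a distal part, with 2 control and 4 knockout arrays for each of the 4 parts. The labels do not say which samples came from separate embryos or whether embryos were pooled, so the p-values measure only the spread between these samples, which may be technical.

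Guidance cues steer growing axons and also sort, repel or attract other moving cells. Ephrins sit on the cell surface and bind Eph receptors on neighbouring cells, with signals in both directions. Class 3 semaphorins are secreted and act through neuropilins and plexins, slits act through Robo receptors, and netrin 1 acts through Dcc, neogenin and the Unc5 receptors. In the embryonic face these systems are known from neural crest migration, from vessel growth and from the paths of the cranial nerves, and Efnb1 from craniofrontonasal syndrome.

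Levels are log2 values made by the authors with RMA (a background correction, normalisation and summary of the probes), and a difference is that of log2 levels. A gene passed the test when its limma p-value, adjusted by Benjamini-Hochberg over 13837 genes, was under 0.05. The knockout arrays fell into a pair of sets by label number. The signal of control probe sets at the 3' end of transcripts over that at the 5' end, a measure of degraded RNA called 3' excess here, was 0.18 ± 0.04 on the control arrays, 1.13 ± 0.28 on knockout arrays numbered 1 and 2, and 0.08 ± 0.06 on those numbered 3 and 4 (log2, SD, n = 8 each). The hybridisation controls also separated the 3 sets. Each set held 1 genotype, so a difference by set and one by genotype cannot be told apart. By Xist, 0 of 8 control arrays and 4 of 8 arrays in each knockout set were female. Tgfbr1 lay at 11.98 to 12.69 on control and 12.07 to 12.64 on knockout arrays; the files used here do not say whether its probe set lies in the deleted part, so it gives no check of the genotype labels.

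The control mandible arrays numbered 2 went against their end labels. Hand2, a gene of the distal mandibular mesenchyme, read 10.80 on control proximal mandible 1 and 13.05 on number 2, and 12.72 on control distal mandible 1 and 11.49 on number 2. On the knockout arrays it read 10.46 to 11.60 at the proximal and 12.38 to 13.11 at the distal end. Alx1, chosen after its values were seen, read 5.52 and 11.64 at the proximal and 11.19 and 5.65 at the distal end of the control mandible. The labels were kept, so every comparison of a control mandible end mixes both kinds of array. Values of such comparisons are also given without the control mandible arrays numbered 2, an alternative that leaves 1 control array an end. The control maxilla ends were not clear either, by Barx1 and Msx1, looked at after their values were seen. Barx1 read 11.84 and 10.31 at the proximal and 11.26 and 9.85 at the distal end of control numbers 1 and 2. On knockout arrays it read 11.10 to 11.78 and 8.03 to 10.01. Msx1 read 11.05 and 12.92 against 9.12 and 12.79 in controls, and 11.02 to 12.94 against 12.39 to 13.11 in knockouts. The jaws themselves separated by the mean level of 7 mandible genes, at 9.14 to 9.93 on mandible and 7.45 to 8.45 on maxilla arrays. Single genes did not all do so. Hand2 averaged 12.01 in the control mandible and 7.93 in the control maxilla, but Alx4, of the same list, 6.67 and 6.85. Barx1, listed as a maxilla gene, averaged 11.49 in the knockout mandible and 10.22 in the knockout maxilla.

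Over the 4 parts together, 0 of 41 guidance genes passed the test between knockout and control, as did 0 of all 13837 genes (0%). By limma without adjustment 7 of 41 had p under 0.05, against 6.97% of all genes. Of the differences, 30 of 41 were below 0, with a median of -0.23 against -0.05 for all genes, which was also below 0. The share of all genes below 0 was not counted. All 8 semaphorins were below 0 over both sets together, but not in each set. Averaged over the parts, Sema3f read 10.95 and 10.61 in knockouts 1 and 2, against 10.56 and 10.62 in controls. Sema5a read 11.80 and 11.43, against 11.26 and 11.49. The largest differences were those of the slit receptor Robo2 at 1.13 ± 0.61 (SE), the netrin receptor Dcc at -0.99 ± 0.40, the slit ligand Slit3 at -0.70 ± 0.30 and the semaphorin Sema3c at -0.62 ± 0.28, none of which passed (limma, adjusted p of 0.707 for each). Leaving out any 1 control or knockout number also gave 0 calls. With RNA quality (the 3' excess) as a covariate 3 of 41 passed, as did 679 of all genes: Ephb4 at -0.48, Efna5 at -0.35 and Efna3 at -0.34. The 3' excess averaged 1.13 on knockouts 1 and 2, 0.08 on the other knockouts and 0.18 on controls. The covariate thus nearly marked knockouts 1 and 2, and the fit came close to comparing the other knockouts with control. It cannot separate RNA quality from the array set.

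Ephb4, the receptor for ephrin-B2 that marks veins, was the only guidance gene whose 8 control and 16 knockout arrays did not overlap, where 1.06% of all genes did not. Its lowest, median and highest level were 10.81, 11.01 and 11.14 on control arrays, 10.20, 10.48 and 10.65 on knockout arrays numbered 1 and 2, and 10.39, 10.49 and 10.71 on those numbered 3 and 4. In the proximal mandible it read 10.87 and 11.14 on control and 10.44, 10.51, 10.48 and 10.71 on knockout arrays. In the distal mandible it read 11.11 and 11.13 on control and 10.37, 10.44, 10.55 and 10.49 on knockout arrays. In the proximal maxilla the values were 10.81 and 11.02 against 10.57, 10.65, 10.46 and 10.44, and in the distal maxilla 10.86 and 11.01 against 10.20, 10.63, 10.39 and 10.54. Every knockout array thus lay below every control array, in each jaw and at each end. The difference over the 4 parts was -0.50 ± 0.10 (SE) with an adjusted p of 0.589 from limma. Only 1 probe set measured the gene.

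Efna5, an ephrin ligand of the A class, followed with -0.37 ± 0.09 and an adjusted p of 0.611 from limma. Its 8 control arrays ranged from 11.06 to 11.32 with a median of 11.20. Knockout arrays numbered 1 and 2 ranged from 10.18 to 11.21 with a median of 10.83, and those numbered 3 and 4 from 10.64 to 11.15 with a median of 10.77. The overlap came from the distal maxilla of knockouts 1 and 2, at 11.10 and 11.21, and the proximal mandible of knockouts 3 and 4, at 11.12 and 11.15. Its 2 probe sets gave the same sign.

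**Figure D1:**
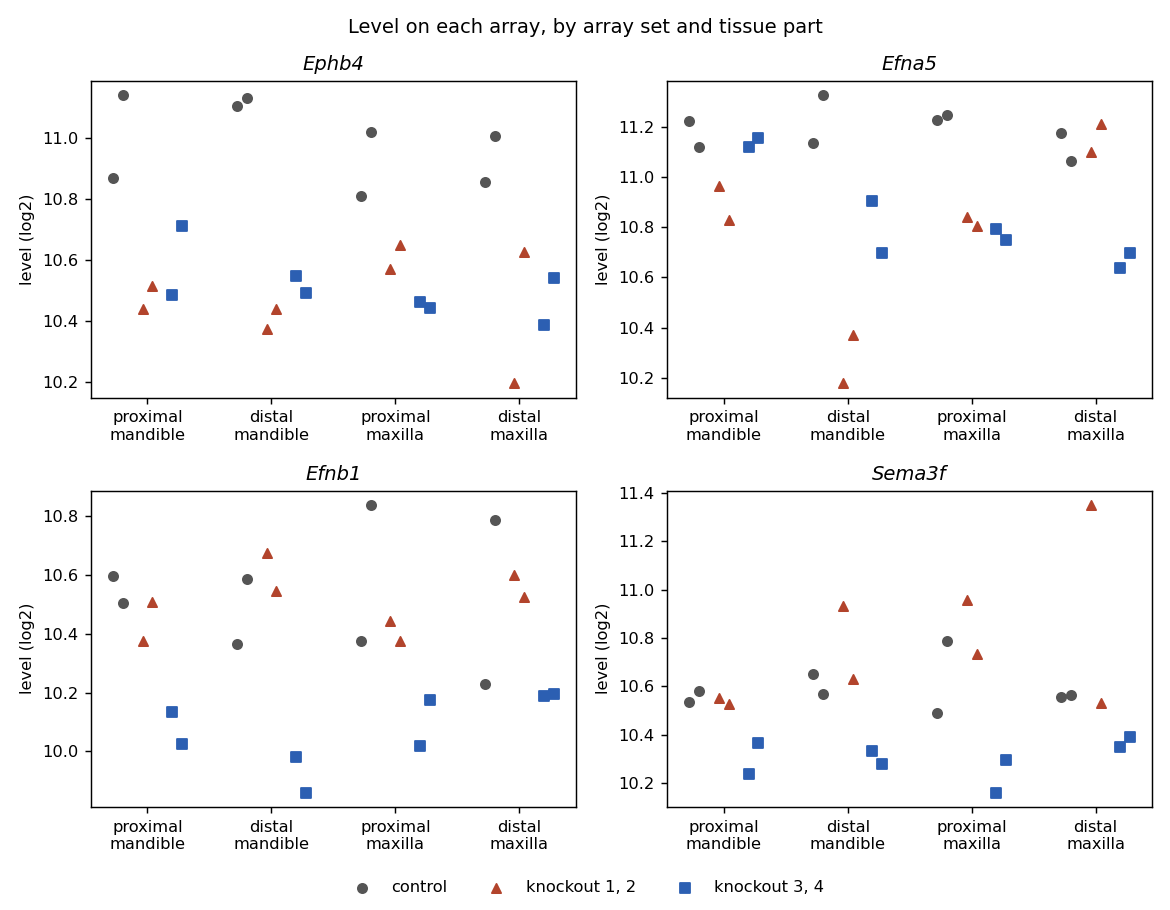
Level (log2, vertical axis) of Ephb4, Efna5, Efnb1 and Sema3f on each of the 24 arrays, by tissue part (horizontal axis), with grey circles for control, red triangles for knockout numbers 1 and 2 and blue squares for knockout numbers 3 and 4. Every knockout array of Ephb4 lies below the lowest control array at 10.81, whereas Efnb1 and Sema3f lie below control on knockout arrays numbered 3 and 4 only.

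The 250 bases before the start of Ephb4 and Efna5 are shown because these genes were lower in both knockout sets, and those of Nrp2, a receptor for class 3 semaphorins and for VEGF, because its end difference turned between the jaws. They come from RefSeq on GRCm38.p6, read 5′ to 3′ on the gene's strand. Capitals mark GGGCGG and its reverse complement CCGCCC, the GC box that Sp1 binds. Ephb4 lies at chr5:137349859-137350108 on the plus strand, Efna5 at chr17:62881318-62881567 on the minus strand and Nrp2 at chr1:62703067-62703316 on the plus strand.
Ephb4: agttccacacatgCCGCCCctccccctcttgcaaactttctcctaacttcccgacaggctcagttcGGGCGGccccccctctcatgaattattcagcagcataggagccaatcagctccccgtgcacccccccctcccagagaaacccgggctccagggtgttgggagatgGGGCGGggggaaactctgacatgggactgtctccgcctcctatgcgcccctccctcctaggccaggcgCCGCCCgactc
Efna5: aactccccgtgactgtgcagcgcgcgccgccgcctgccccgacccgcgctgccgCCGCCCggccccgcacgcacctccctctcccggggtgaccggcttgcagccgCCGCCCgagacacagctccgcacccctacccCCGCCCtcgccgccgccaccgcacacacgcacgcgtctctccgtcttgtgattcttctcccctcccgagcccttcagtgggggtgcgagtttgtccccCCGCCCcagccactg
Nrp2: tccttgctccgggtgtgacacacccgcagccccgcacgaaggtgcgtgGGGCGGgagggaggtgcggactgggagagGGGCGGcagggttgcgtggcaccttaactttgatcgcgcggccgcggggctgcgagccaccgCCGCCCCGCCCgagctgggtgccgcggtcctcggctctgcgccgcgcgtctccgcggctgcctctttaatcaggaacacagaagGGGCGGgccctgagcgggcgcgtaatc
With overlapping matches counted, Ephb4 held 4 GC boxes, Efna5 4 and Nrp2 5, of which a pair shares 1 base, and their GC content was 64.0%, 74.8% and 72.4%. The GC box was found in 23 of the 33 guidance genes with a listed promoter (69.7%) and in 32.9% of 27025 promoters of the same length. CAGAC or its reverse complement GTCTG, letters found in Smad binding sites, had 0 matches in each of the 3 windows, against 13 of 33 guidance genes (39.4%) and 42.1% of all promoters. A match is a description of the letters only.

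In each part taken alone, 0 of 41 guidance genes passed the test between knockout and control. The background was 0% of all genes in the proximal mandible, 0.0145% in the distal mandible, 0.00723% in the proximal maxilla and 0.00723% in the distal maxilla. By limma without adjustment, 5, 8, 4 and 3 members had p under 0.05 in that order, against 7.65%, 9.86%, 6.35% and 4.89% of all genes. Ephb4 had the smallest p in 3 of the 4 parts, with -0.47 ± 0.12 in the proximal mandible, -0.66 ± 0.12 in the distal mandible and -0.49 ± 0.12 in the distal maxilla (SE), and it was at -0.38 ± 0.12 in the proximal maxilla. The largest differences in the proximal mandible were Dcc at -0.95 ± 0.66, Robo2 at 0.90 ± 0.78, Sema3b at -0.88 ± 0.27 and Slit3 at -0.81 ± 0.37. In the distal mandible they were Dcc at -2.09 ± 0.66, Sema3e at -1.26 ± 0.55, Robo2 at 0.99 ± 0.78 and Epha5 at -0.90 ± 0.75. The mandible values rest in part on the control arrays whose end labels are in doubt. Without them Ephb4 was at -0.33 ± 0.16, Dcc at -1.14, Robo2 at 0.84, Sema3b at -0.74 and Slit3 at -0.62 in the proximal mandible. In the distal mandible Ephb4 was then at -0.64 ± 0.16, Dcc at -2.26, Sema3e at -1.53, Robo2 at 1.11 and Epha5 at -0.86, and again 0 members passed at either end. In the proximal maxilla the largest differences were Robo2 at 1.55 ± 0.78, Efna3 at -0.74 ± 0.31, Epha5 at -0.64 ± 0.75 and Unc5c at -0.63 ± 0.38. In the distal maxilla they were Ntn1 at -1.12 ± 0.55, Robo2 at 1.08 ± 0.78, Slit3 at -1.06 ± 0.37 and Epha3 at -1.01 ± 0.64. The adjusted p from limma was 0.0788 to 0.515 for Ephb4 and 0.343 or more for the others. In bulk tissue, fewer cells of a type and less RNA per cell cannot be told apart, here or in any result that follows.

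Knockouts numbered 3 and 4, whose 3' excess was no larger than that of the controls, differed from control in 2 of 41 guidance genes, against 4.64% of all genes; both fell, against 3.56% of all genes that fell and 1.08% that rose. These were Efna5 at -0.35 ± 0.06 (SE, limma adjusted p = 0.0354) and Ephb4 at -0.48 ± 0.09 (adjusted p = 0.0457). Neither kept its call when any 1 control or knockout number was left out: Efna5 then lay between -0.36 and -0.33 and Ephb4 between -0.57 and -0.40. The adjusted p ranged from 0.06 to 0.208 for Efna5 and from 0.0696 to 0.262 for Ephb4. Without adjustment 13 members had p under 0.05, against 25.7% of all genes. Of 12 endothelial markers, 2 were lower and 0 higher in this comparison, with a mean level of 9.18 to 9.73 against 9.33 to 9.60 in controls. Their part in the result was not tested.

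Efnb1, the X-linked ephrin, did not pass in these knockouts but its arrays did not overlap with the controls. It read 10.13 and 10.03 in the proximal mandible, 9.98 and 9.86 in the distal mandible, 10.02 and 10.18 in the proximal maxilla and 10.19 and 10.19 in the distal maxilla. Control arrays ran from 10.23 over a median of 10.55 to 10.84. The difference was -0.46 ± 0.10 (SE) with an adjusted p of 0.065 from limma. Within these knockouts Efnb1 averaged 10.08 ± 0.10 on the male and 10.06 ± 0.16 on the female arrays (SD over the 4 parts). The male arrays were those numbered 3 and the female arrays those numbered 4, so sex and number cannot be told apart there. Sema3f, a secreted semaphorin, also lay below all controls, at 10.16 to 10.39 against 10.49 to 10.79, with -0.29 ± 0.12 and an adjusted p of 0.196. With Ephb4, 3 members did not overlap, against 7.13% of all genes. Other large differences were Dcc at -0.47 ± 0.15 (adjusted p = 0.135) and Sema3b at -0.41 ± 0.10 (adjusted p = 0.0844).

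Knockouts numbered 1 and 2, the set with the large 3' excess, differed from control in 26 of 41 guidance genes, against 58.0% of all genes. Of these, 7 rose, against 23.7% of all genes, and 19 fell, against 34.3%. The median difference was -0.28, against -0.06 for all genes, and the arrays of 10 members did not overlap, against 30.5% of all genes. The share called was close to that of all genes, and the set's RNA quality moved with it; its part in the result was not tested.

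Among the Eph receptors 1 rose and 6 fell of 8. Epha3, a receptor for the A-class ephrins, fell by 1.18 ± 0.08 (SE) to levels of 9.54 to 11.39, all below the control range of 11.74 to 12.32. Epha5 fell by 1.38 ± 0.13 to a mean of 5.65 ± 0.46 (SD, n = 8), which is under the filter level of 6.07, from 7.03 ± 0.43 on control arrays. Ephb1 fell by 0.77 ± 0.07 and Ephb4 by 0.52 ± 0.09. In knockouts 3 and 4, which share the controls, Epha3 was 0.23 ± 0.08 and Epha5 0.31 ± 0.13 above control, and neither passed (limma, adjusted p of 0.154 and 0.207). The sets differed for both genes, by -1.41 ± 0.08 and -1.69 ± 0.13 between knockouts 1 and 2 and knockouts 3 and 4 (limma, adjusted p of 0.000166 and 0.000271).

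Among the ephrins 2 rose and 2 fell of 8. Efna3 fell by 0.88 ± 0.06, to 7.12 to 7.61 at 6 of 8 arrays and 8.53 and 8.24 in the distal maxilla, and Efna5 fell by 0.40 ± 0.06. Efna2 rose by 0.24 ± 0.07 and Efnb2, the partner of Ephb4 that marks arteries, by 0.29 ± 0.10. For Efnb2 the other 3 probe sets fell, by 0.75, 1.38 and 0.75, so the direction depends on the probe set, as it did for Efna2 and Epha7. Efnb1 was at -0.03 ± 0.10 and did not pass (limma, adjusted p = 0.817), and it was 0.43 ± 0.10 higher than in knockouts 3 and 4 (adjusted p = 0.012).

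Among the semaphorins 0 rose and 5 fell of 8. All 5 were secreted class 3 members, as are all the listed semaphorins but Sema5a and Sema6a. Sema3e, the ligand of Plxnd1 in vessels, fell by 1.18 ± 0.12 to 5.37 to 6.86, below the control range of 7.05 to 8.05. Its lowest level there lay under the filter level of 6.07. Sema3d fell by 0.98 ± 0.15 and Sema3c, a cue of the outflow tract neural crest, by 0.95 ± 0.16. Sema3e and Sema3d were at 0.04 ± 0.12 and 0.06 ± 0.15 in knockouts 3 and 4 and did not pass there. Of their 7 receptors, 2 rose and 1 fell. Plxnb1, a receptor of class 4 semaphorins, rose by 0.93 ± 0.08 to 10.23 to 10.89 from 9.41 to 9.91 on control arrays, and Plxna2 rose by 0.57 ± 0.08. Nrp2 fell by 0.81 ± 0.06, from 10.93 to 11.31 on control arrays to 9.89 to 10.79, although 1 of its 4 probe sets rose.

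Of the slits, Slit3 fell by 1.10 ± 0.09 to 7.30 to 8.19 from 8.65 to 9.34, Slit2 fell by 0.86 ± 0.08, and Slit1 did not pass. Their receptors parted: Robo1 fell by 0.79 ± 0.09, with 1 of 3 probe sets in that direction, and Robo2 rose by 1.91 ± 0.28. Robo2 read 7.84 to 9.16 on these arrays and 6.03 to 7.24 on control arrays. Its knockouts 3 and 4 spread from 5.48 to 8.22, and the difference there was 0.36 ± 0.28 and did not pass. Netrin 1 (Ntn1) fell by 1.02 ± 0.18. Its receptor Dcc fell by 1.52 ± 0.15. Neogenin (Neo1) rose by 0.69 ± 0.06, with 3 of its 5 probe sets in that direction, and Unc5b and Unc5c did not pass.

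The limma adjusted p of the 26 guidance genes that passed in knockouts 1 and 2 ran from 0.000271 for Efna3 to 0.0452 for Ephb3. The 10 with the smallest p were Efna3, Epha3, Nrp2, Slit3, Plxnb1, Neo1, Slit2, Ephb1, Epha5 and Sema3e, and the others were chosen here after their values were seen. Leaving out 1 number ended 6 of the 26 calls. Efnb2 lost its call without any number but knockout 2 and fell to 0.16 without knockout 1, and Ephb3 lost its call without any number but control 1 and was at -0.17 without control 2. Efna2 lost its call without control 1 or knockout 2, 3 or 4, and was at 0.18 to 0.24. Epha7, at 0.27 to 0.36, lost its call without control 2 or knockout 1 or 2. Sema3a, at -0.25 to -0.21, lost its call without control 1 or 2 or knockout 2, and Epha4, at -0.67, without knockout 1.

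The cell type markers moved in this set as well. Endothelial markers fell for 9 and rose for 1 of 12, with a mean level of 8.23 to 8.99 against 9.33 to 9.60 on control arrays. All 8 erythroid markers rose and all 13 cartilage markers fell, of which 5 also fell in knockouts 3 and 4. Neuron markers fell for 2 of 12 and glial and crest markers for 4 of 5. The part of these cells in the guidance gene differences was not tested. Between the knockout sets, where genotype is the same, 11 guidance genes were higher and 17 lower in knockouts 1 and 2, against 27.9% and 34.6% of all genes, or 62.5% in either direction. Ephb4 and Efna5 were not among them, at -0.03 ± 0.09 (95% interval -0.26 to 0.19) and -0.06 ± 0.06 (-0.20 to 0.08).

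**Figure D2:**
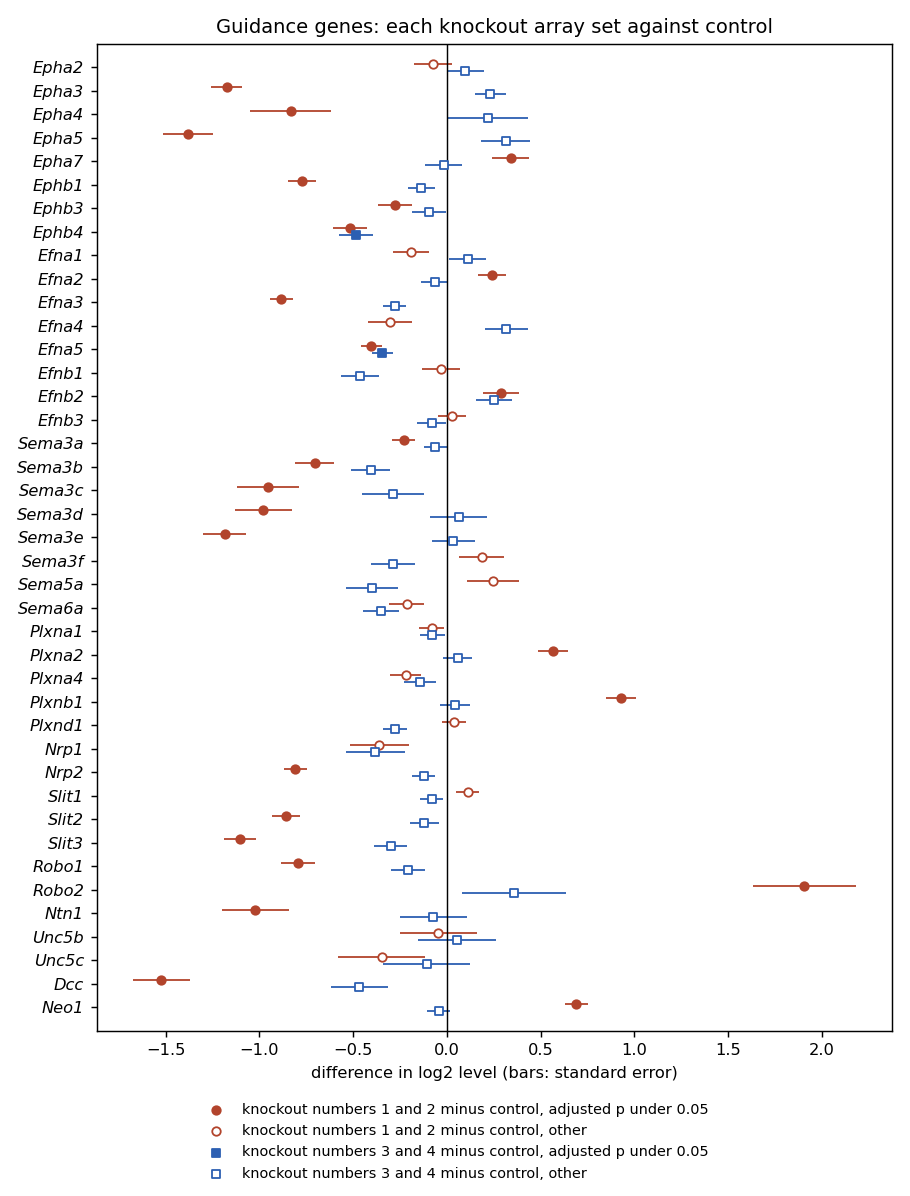
Difference in log2 level from control (horizontal axis, bars are standard errors) for the 41 guidance genes, with red circles for knockout numbers 1 and 2 and blue squares for knockout numbers 3 and 4, filled where the adjusted p is under 0.05. Of the 41, 26 are filled in red and 2 in blue, and Ephb4 and Efna5 are filled in both. The red and blue differences are taken from the same control arrays, so they are not independent.

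Other genes of these pathways were counted from a wider list of 59, of which 57 were measured. In knockouts 1 and 2, 16 rose and 19 fell, against 23.7% and 34.3% of all genes. They were led by the netrin receptor Unc5d at -2.56 ± 0.11, Sema4g at 0.84 ± 0.07, Sema3g at -0.90 ± 0.08 and the adaptor Nck1 at -1.44 ± 0.12. In knockouts 3 and 4, 0 rose and 2 fell, against 1.08% and 3.56% of all genes. The 2 that fell were the exchange factor Trio at -0.64 ± 0.07 (SE, limma adjusted p = 0.0148) and Sema4d at -0.56 ± 0.07 (adjusted p = 0.0209).

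Between the jaws, 0 of 41 guidance genes passed in controls, against 0.687% of all genes, with 6 members at p under 0.05 by limma without adjustment, against 11.4%. The arrays of 3 did not overlap, against 7.50% of all genes. Efnb2 read 12.09, 12.02, 11.99 and 12.10 in the control mandible and 11.73, 11.61, 11.49 and 11.65 in the control maxilla, a difference of 0.43 ± 0.10 (SE) with an adjusted p of 0.0704, and its 4 probe sets agreed in sign. Sema5a was 0.52 ± 0.22 and Robo1 0.31 ± 0.14 higher in the mandible. Efna3 at -0.40 ± 0.12 and Sema3d at -0.62 ± 0.22 had the largest differences toward the maxilla and did not pass. Without the control mandible arrays numbered 2, Efnb2 was at 0.42, Sema5a at 0.44, Robo1 at 0.33, Efna3 at -0.47 and Sema3d at -0.45, and 0 passed. Of the wider list, Flrt1, which binds Unc5 receptors, was lower in the control mandible at -0.99 ± 0.14 (limma adjusted p = 0.0059).

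In knockouts, with both sets weighted equally, 7 of 41 guidance genes passed between the jaws, against 7.71% of all genes. Of these, 3 semaphorins were higher in the mandible, against 3.34% of all genes, and Dcc, Sema3e, Efna3 and Slit2 were lower, against 4.37%. All 7 had the same sign in both knockout sets. This adds no further support, since the 7 were picked by a test that averages these sets. In none of the 41 did all mandible arrays lie apart from all maxilla arrays, against 0.708% of all genes.

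Sema3a, which repels sensory axons through Nrp1, read 10.73, 10.82, 10.84 and 11.00 in the proximal and 10.72, 10.59, 10.87 and 10.73 in the distal mandible of knockouts. In the maxilla it read 10.16, 10.20, 10.19 and 10.51 in the proximal and 10.47, 10.32, 10.63 and 10.59 in the distal part. Only the distal parts touch, and the difference was 0.40 ± 0.07 (SE, limma adjusted p = 0.0037). Sema6a, a transmembrane semaphorin, ran from 8.83 over a median of 9.34 to 9.71 in the mandible and from 8.62 over 8.86 to 9.17 in the maxilla, with 0.47 ± 0.09 (adjusted p = 0.0063). Sema5a, which carries thrombospondin repeats, ran from 11.13 over 11.54 to 12.31 and from 10.41 over 10.97 to 11.69, with 0.57 ± 0.16 (adjusted p = 0.0376). In controls the corresponding differences were -0.06 ± 0.10 for Sema3a, 0.26 ± 0.13 for Sema6a and 0.52 ± 0.22 for Sema5a.

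Dcc ran from 5.03 over a median of 6.19 to 8.01 in the knockout mandible and from 6.35 over 7.55 to 8.80 in the knockout maxilla. The difference was -1.28 ± 0.17 (SE, limma adjusted p = 0.000517). Sema3e ran from 5.37 over 6.69 to 7.50 and from 6.32 over 7.30 to 8.15, with -0.79 ± 0.13 (limma adjusted p = 0.0025). The lowest knockout mandible levels of both genes lay under the filter level of 6.07, and the median of Dcc lay close to it. Over all parts Dcc was above that level on 20 of 24 arrays and Sema3e on 22. The sizes of these differences are thus uncertain. Efna3 differed by -0.44 ± 0.08 (adjusted p = 0.0045) and Slit2 by -0.46 ± 0.10 (adjusted p = 0.0147). Dcc, Sema3e, Efna3 and Slit2 were also lower in knockouts 1 and 2 than in knockouts 3 and 4, and the ranges of the jaws overlap. Within knockouts 1 and 2 alone, Dcc differed by -1.92 ± 0.25 and Efna3 by -0.70 ± 0.12. Within knockouts 3 and 4 alone they differed by -0.64 ± 0.25 and -0.18 ± 0.12, and Sema3e, at -0.91 ± 0.19, was the only guidance gene that passed.

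Dcc kept its call without any 1 knockout number, at -1.50 to -1.06. Without knockout 3 or without knockout 4, the other 6 lost theirs, and without knockout 2 Sema3a, Sema5a and Slit2 did; without knockout 1 only Slit2 did. Without 1 knockout number Sema3a lay between 0.37 and 0.44, Sema6a between 0.45 and 0.48 and Sema5a between 0.44 and 0.70. Sema3e lay between -0.81 and -0.77, Efna3 between -0.48 and -0.40 and Slit2 between -0.49 and -0.42. Sema5a also lost its call without the control mandible arrays numbered 2, at the same 0.57. Neuron markers were lower in the knockout mandible for 7 of 12, with a mean level of 7.07 to 8.42 against 8.10 to 10.78 in the knockout maxilla, and skeletal muscle markers were higher for 9 of 11. In the mandible of knockouts 1 and 2, Tubb3, Stmn2 and Snap25 lay below the filter level. The part of nerve and muscle in the 7 differences was not tested.

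**Figure D3:**
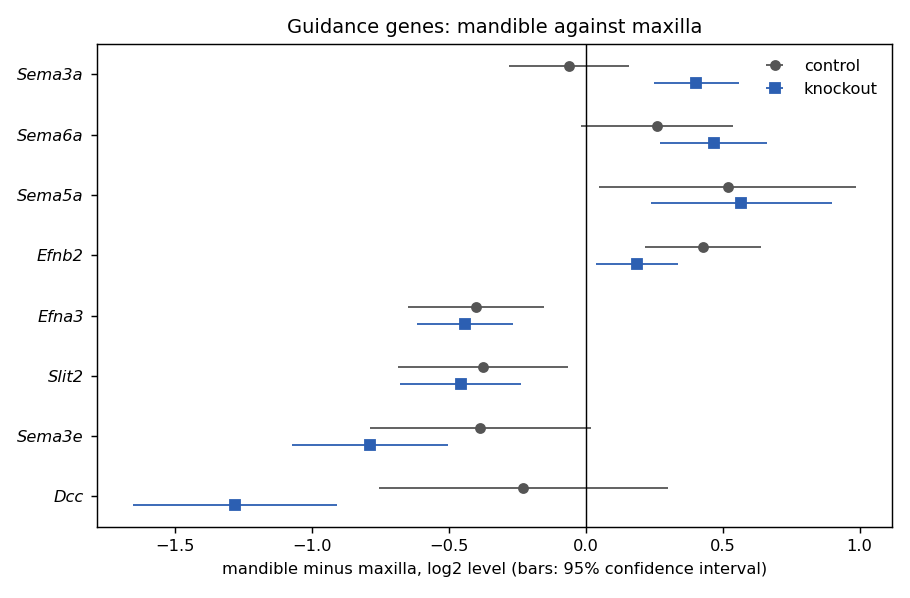
Mandible minus maxilla difference in log2 level (horizontal axis, bars are 95% confidence intervals) for the 7 guidance genes that passed in knockouts and for Efnb2, with grey circles for control and blue squares for knockout. The intervals of control and knockout overlap for Sema6a, Sema5a, Efna3, Slit2, Sema3e and Efnb2 but not for Sema3a, at -0.06 in control and 0.40 in knockout, or for Dcc, at -0.23 and -1.28.

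The jaw difference itself was compared between genotypes, and 0 of 41 guidance genes passed, as did 0% of all genes; by limma without adjustment 4 members had p under 0.05, against 4.12%. The largest were Dcc, whose lowest knockout mandible value lay under the filter level, at -1.05 ± 0.30, Ntn1 at 0.57 ± 0.41, Unc5c at 0.52 ± 0.37 and Robo1 at -0.47 ± 0.17 (SE). For Sema3a it was 0.46 ± 0.13, with a 95% interval of 0.20 to 0.73 and an adjusted p of 0.822. Without the control mandible arrays numbered 2, Dcc was at -1.23, Ntn1 at 0.51, Unc5c at 0.59, Robo1 at -0.49 and Sema3a at 0.52. Between the knockout jaws, a comparison without controls, 3 genes of the wider list were higher and 6 lower in the mandible. The shares of all genes there were 3.34% and 4.37%. Among those lower were Flrt1 at -0.88 ± 0.10, Dpysl3 at -0.73 ± 0.11, Sema4f at -1.18 ± 0.20 and Sema4d at -0.34 ± 0.07. Flrt1 was lower in the control mandible as well.

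Between the ends, 0 of 41 guidance genes passed in the control mandible and 0 in the control maxilla, as did 0% of all genes in each. By limma without adjustment 0 and 1 members had p under 0.05, against 0.260% and 2.90% of all genes. Arrays did not overlap for 8 members in the mandible and 6 in the maxilla, against 16.3% and 21.5% of all genes. In the control mandible Dcc at 0.31 ± 0.35, Epha5 at -0.30 ± 0.34, Epha3 at 0.27 ± 0.26 and Unc5b at -0.26 ± 0.39 had the largest differences (distal minus proximal, SE). In the control maxilla they were Robo2 at 0.91 ± 0.59, Epha5 at -0.43 ± 0.34, Dcc at 0.39 ± 0.35 and Slit3 at 0.32 ± 0.21. These controls include the mandible arrays numbered 2, whose end labels are in doubt, and the maxilla arrays, whose ends did not separate by Barx1 as in knockouts. Without the mandible arrays numbered 2 the control mandible rests on 1 array an end, with Epha3 at -0.04 and Unc5b at 0.33.

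In the knockout mandible 4 of 41 guidance genes passed between the ends, against 1.09% of all genes: Efna5, Efnb3 and Sema3e were lower and Nrp2 was higher at the distal end. Efna5 read 10.96, 10.83, 11.12 and 11.15 at the proximal end of knockouts 1 to 4 and 10.18, 10.37, 10.90 and 10.70 at the distal end, lower by 0.48 ± 0.07 (SE, limma adjusted p = 0.0038). Efnb3, a ligand of Epha4 in axon guidance, read 11.05, 11.00, 10.91 and 11.06 against 10.66, 10.66, 10.35 and 10.43, lower by 0.48 ± 0.09 (adjusted p = 0.0182). Its ends did not overlap, as those of 5 other members and 3.87% of all genes. Sema3e read 6.20, 6.83, 7.50 and 7.39 against 5.37, 5.49, 6.79 and 6.60, lower by 0.92 ± 0.19 (limma adjusted p = 0.031). Its distal values in knockouts 1 and 2 lay under the filter level of 6.07, so the size of this difference is uncertain. Nrp2 read 9.89, 10.05, 10.88 and 10.78 at the proximal and 10.58, 10.49, 11.25 and 11.20 at the distal end, higher by 0.48 ± 0.09 (adjusted p = 0.0199).

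Each of the 4 moved the same way in every knockout number. This adds no further support, since the 4 were picked by this test and the numbers were not taken to pair the samples. Efnb2 was also lower at the distal end without passing, at 11.79, 11.72, 12.23 and 12.20 against 12.59, 12.43, 12.32 and 12.31 (-0.43 ± 0.10, limma adjusted p = 0.0538). Efna5 kept its call only without knockout 2, at -0.56, and the other 3 lost theirs without any 1 knockout number. Left out 1 at a time, the differences ranged from -0.56 to -0.39 for Efna5, -0.50 to -0.46 for Efnb3, 0.42 to 0.54 for Nrp2 and -1.05 to -0.79 for Sema3e. With the mean of all probe sets of a gene, Efna5 did not pass and Efnb2 did, while Efnb3, Sema3e and Nrp2 kept their calls. Cell type markers moved in the same comparison. Macrophage markers lay at a mean level of 7.23 to 7.57 at the distal and 7.64 to 8.37 at the proximal end, which do not overlap; 9 of 10 were below 0 and 0 passed. Glial and crest markers lay at 6.80 to 8.25 against 7.81 to 8.69, with 4 of 5 below 0 and 0 passing. Endothelial markers lay at 8.73 to 9.54 against 8.51 to 9.24, with 2 of 12 higher at the distal end by the test. The part of these cells in the result was not tested. Of the wider list 1 gene passed, Farp2, a mediator of semaphorin 3A signals, at -0.57 ± 0.12 (adjusted p = 0.0418).

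Netrin 1 and the repulsive netrin receptors Unc5b and Unc5c are described here after their values were seen. At the knockout distal mandible Unc5c read 10.86, 11.00, 10.95 and 10.76 and at the proximal end 10.18, 9.88, 9.94 and 10.02, higher by 0.89 ± 0.30. Unc5b read 9.33, 9.46, 9.84 and 9.58 against 9.09, 8.73, 8.87 and 9.02, and Ntn1 read 8.73, 8.31, 9.30 and 9.71 against 9.47, 9.56, 10.87 and 10.81. None passed (limma, adjusted p of 0.254, 0.421 and 0.147), although the ends of Unc5b and Unc5c did not overlap. In controls the arrays numbered 1 ran the same way, with Unc5c at 10.05 proximal and 10.63 distal and Ntn1 at 10.52 and 9.33. The control arrays numbered 2 ran the other way, with Unc5c at 10.94 and 10.04 and Ntn1 at 9.09 and 10.50, as Hand2 did. Efnb3 showed this too, at 10.99 proximal and 10.64 distal on number 1 and 10.80 and 11.05 on number 2. Nrp2 did not turn between the numbers, with levels at 11.13 and 11.23 on number 1 and 11.26 and 11.31 on number 2.

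**Figure D4:**
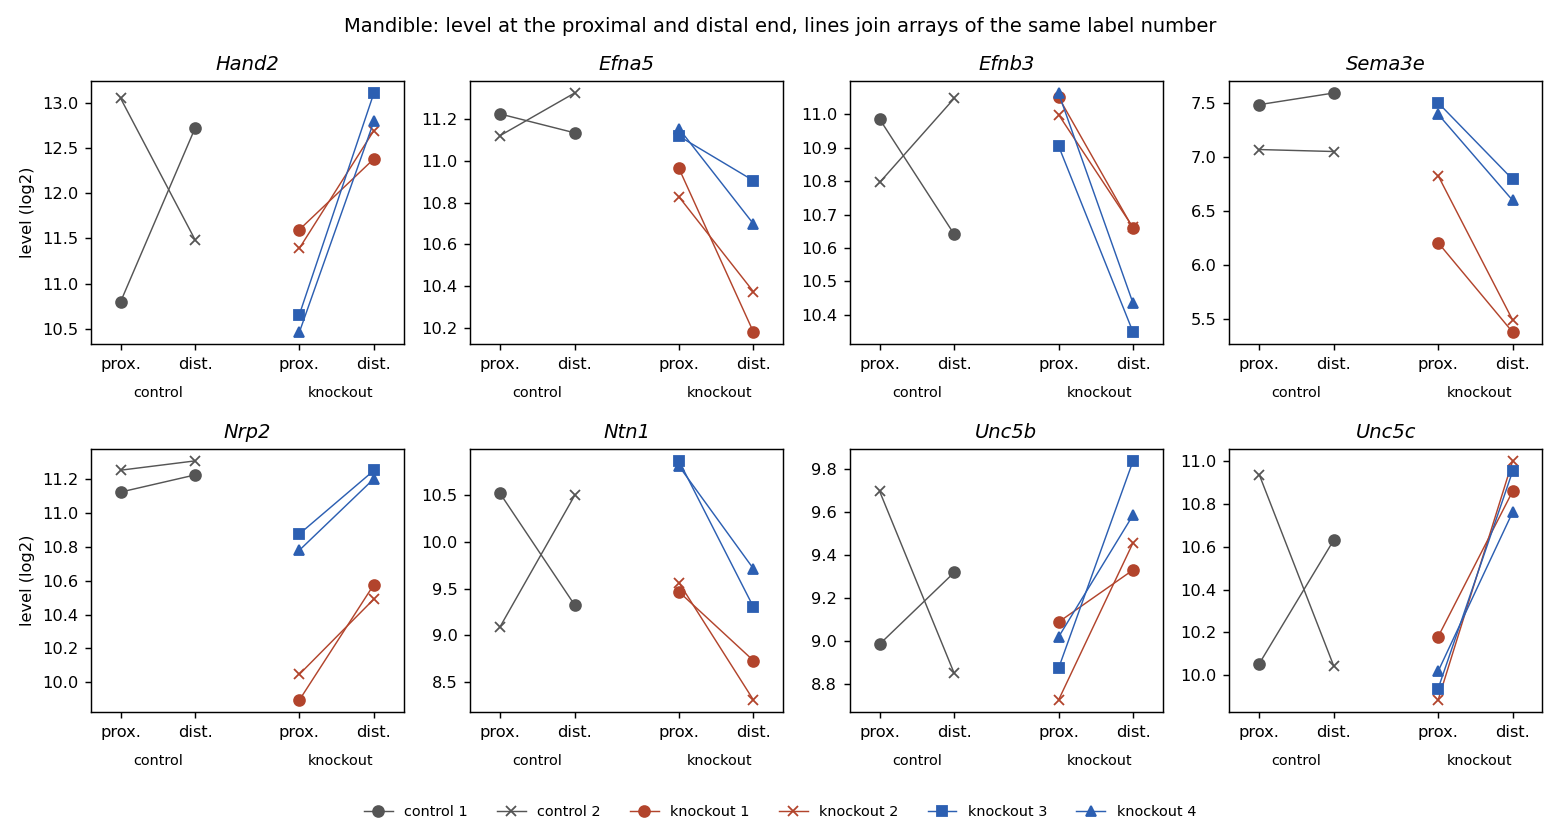
Level (log2, vertical axis) of Hand2, a distal mandible gene, and 7 guidance genes at the proximal and distal end of the mandible in control (grey) and knockout (red for numbers 1 and 2, blue for 3 and 4), with lines joining arrays of the same label number. All 4 knockout lines run the same way in every panel, whereas control numbers 1 and 2 cross for Hand2, Efna5, Efnb3, Ntn1, Unc5b and Unc5c.

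In the knockout maxilla 0 of 41 guidance genes passed between the ends, against 0.0650% of all genes, with 8 at p under 0.05 by limma without adjustment, against 6.09%. The largest differences were Epha3 at -0.83 ± 0.18, Nrp1 at -0.68 ± 0.23, Efna3 at 0.59 ± 0.12 and Unc5c at 0.45 ± 0.30 (SE), with adjusted p of 0.122 or more. Efna3 ran from 7.48 over a median of 7.80 to 8.28 at the proximal and from 8.24 over 8.48 to 8.53 at the distal end. Nrp2 read 10.78, 10.79, 11.15 and 11.45 at the proximal and 10.17, 10.42, 11.00 and 10.93 at the distal end, lower by 0.41 ± 0.09 (adjusted p = 0.183), the opposite of its mandible. Efna5 read 10.84, 10.81, 10.79 and 10.75 against 11.10, 11.21, 10.64 and 10.70, where the sets part.

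The end difference was then compared between the jaws of knockouts, and 2 of 41 guidance genes passed, against 0.260% of all genes. For Nrp2, distal minus proximal was greater in the mandible than in the maxilla by 0.89 ± 0.13 (SE, limma adjusted p = 0.0113), with 4 of 4 probe sets in that direction. For Efna5 the difference was -0.59 ± 0.10 (limma adjusted p = 0.0258), with 2 of 2 probe sets. With the mean of all probe sets of a gene, Nrp2 kept its call and Efna5 did not. Without any 1 knockout number both lost their call, with Nrp2 between 0.77 and 1.01 and Efna5 between -0.68 and -0.50. Within knockouts 1 and 2 alone Nrp2 was at 1.05 and Efna5 at -0.95, and within knockouts 3 and 4 alone at 0.73 and -0.23. Other large values were Dcc at -1.09 ± 0.35, Sema3e at -0.89 ± 0.27 and Epha5 at -0.83 ± 0.34, none of which passed. The end difference did not pass for any of the 41 when compared between knockout and control, against 0.00723% of all genes, with 4 members at p under 0.05 by limma without adjustment, against 3.69%. The largest there were Ntn1 at -0.92 ± 0.41, Unc5c at 0.66 ± 0.37, Dcc at -0.64 ± 0.30 and Epha3 at -0.51 ± 0.23. They rest on the control mandible arrays whose end labels are in doubt and on the control maxilla, whose ends did not separate by Barx1. Without the mandible arrays numbered 2 Ntn1 was at -0.28, Unc5c at 0.30, Dcc at -0.62 and Epha3 at -0.36.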

How the data were processed

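Total RNA of 24 samples, 8 control and 16 knockout, was measured on Affymetrix Mouse430_2 arrays. The authors deposited log2 values made with RMA, per the submitters' processing notes; the version is not given in the sources used here. Of 45101 probe sets, 34945 were named to 1 gene symbol in the platform annotation, 932 to several and 9160 to none, and 64 were control features. Each gene was read from its brightest probe set on average, and genes above 6.07, the 40th percentile, on at least 2 arrays were tested (13837 of 18193).

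Tests used limma 3.58.1 in R 4.3.3 (lmFit, eBayes) with Benjamini-Hochberg adjustment over all genes tested. Comparisons over the 4 parts used the mean of each of the 6 replicate numbers, with 2 groups or with 3 array sets (residual degrees of freedom 4 and 3). Knockout and control within a part were compared over 24 arrays in 8 groups, and jaws and ends over 12 groups of part and array set, with knockout sets weighted equally (16 and 12). The array sets rest on the control probe sets together with genotype and number, not on a label. Arrays were called female where Xist was above 10. The procedure was tested on simulated data with independent noise on each array. These held no array sets and no exchanged labels, so they cannot show how the tests behave with either. Precision is limited by how few arrays a group holds.

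The members, gene lists and tests were chosen with earlier results of these data known. In each comparison, members that passed were counted by family and up to 10 with the smallest p named. Where under 3 passed, the 4 with the largest difference were named. The 4 other guidance genes with the smallest p were also eligible, and Efnb1 was always described. Alternatives were array centring, no filter, the mean of all probe sets, an intensity trend, a replicate block, covariates for RNA quality and sex, and leaving out each number. Knockout sets taken alone and leaving out the control mandible arrays numbered 2 were chosen after seeing the data.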

Additional observations from a re-analysis of the deposited data

Results flagged for a closer look

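Within groups of 4 knockout arrays, 164 gene and part combinations were examined, and in 7 of them 1 array stood far from the other 3; chance gives about 1 in 20. In the proximal maxilla, Ephb3 read 11.84 on number 3 against 11.08 to 11.17 on the others. Sema3a read 10.51 on number 4 against 10.16 to 10.20, and Sema3b read 7.34 on number 4 against 6.74 to 6.84. Nrp1 read 10.26 on number 1 against 11.17 to 11.31, and Robo2 read 5.48 on number 4 against 8.22 to 8.55. In the distal maxilla, Robo1 read 10.75 on number 1 against 11.47 to 11.57, and Unc5c read 8.97 on number 2 against 10.18 to 10.41.

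For 2 genes the distal against proximal difference in knockouts differed between mandible and maxilla by its own test. It was 0.89 greater in the mandible for Nrp2 and differed by -0.59 for Efna5.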

How the results depend on the processing

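Counts of guidance genes called changed as follows; where no value or construction of the alternative shows it, the cause was not tested. Over the 4 parts, 22 passed with a replicate block (6393 of all genes), which keeps only control and knockouts 1 and 2 and calls Ephb4 and Efna5 among others, and 3 with RNA quality as a covariate (679). That covariate nearly marks the knockout set with the large 3' excess. With the block, 19 passed in the proximal mandible (5981 of all genes) and 21 in the distal mandible (6709). In the proximal maxilla 18 passed (4987 of all genes) and in the distal maxilla 20 (5723). The main fits called 0, 2, 1 and 1 of all genes in that order, so the rise with the block was not confined to guidance genes. Centring the arrays gave 1 in the distal mandible (11 of all genes). The numbers were not taken to pair the samples, since no label says so and not every correlation was over 0.1: correlations of deviations ran from -0.68 to 0.58 in controls, -0.31 to 0.22 in knockouts 1 and 2 and 0.07 to 0.35 in knockouts 3 and 4. No blocked fit was possible for knockouts 3 and 4 against control or between the sets, which share no numbers.

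Knockouts 3 and 4 against control gave 4 with the mean of all probe sets, 0 with only the 2 sets compared (216 of all genes against 642) and 0 to 2 with 1 number left out (16 to 1128). Control jaws gave 1 with an intensity trend, 1 with the block and 0 to 1 with 1 number left out. Knockout jaws gave 2 in 8 groups without array set, 1 with knockouts 3 and 4 only (91 of all genes against 1067) and 1 to 10 with 1 number left out. Ends of the knockout mandible gave 0 in 8 groups, 2 with the block in crossed numbers, 2 with knockouts 1 and 2 only, 0 with knockouts 3 and 4 only and 0 to 7 with 1 number left out. The crossed numbers exchange the proximal maxilla arrays 1 and 2 of the knockouts, whose sex runs against the other parts. Nrp2 lost its call at these ends with either block and Sema3e with the crossed block. Ends of the knockout maxilla gave 0 to 3 and the end difference between genotypes 0 to 1 with 1 number left out. The end difference between knockout jaws gave 1 with the block, 1 with the crossed block, 0 in 8 groups, 0 with knockouts 3 and 4 only and 0 to 4 with 1 number left out; Efna5 was the call lost with either block.

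With the mean of all probe sets, the difference between knockouts numbered 1 and 2 and control turned to -0.010 for Efna2, -0.65 for Efnb2 and -0.80 for Epha7. That between the knockout sets turned to -0.95 for Epha7, 0.062 for Nrp2 and -0.34 for Sema5a. At the ends of the control mandible, leaving out control number 1 or 2 gave 0.10 or -0.71 for Epha5, 0.58 or -0.04 for Epha3 and -0.84 or 0.33 for Unc5b, and leaving out only the mandible arrays numbered 2 gave -0.04 for Epha3 and 0.33 for Unc5b. In the control maxilla, leaving out number 1 or 2 gave 0.33 or -1.18 for Epha5 and 0.69 or -0.062 for Slit3. Of 69 calls of named guidance genes, 65 were kept after centring, 68 without a filter, 67 with an intensity trend, 51 with the mean of all probe sets and 43 without knockout number 4. Centring moved the median of all genes by -0.08 in knockouts 1 and 2 against control.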
